A study of Homo sapiens with 2 samples.

Results

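The BCL2 family decides whether the outer membrane of mitochondria is opened in apoptosis, and its transcripts were examined here in HT-29 cells, a human colorectal adenocarcinoma line, grown as monolayer or as spheroids. The genes were 10 named members, and every probe set assigned to their symbols was taken. They comprise 3 survival members (BCL2, BCL2L1 and MCL1), 5 BH3-only members (BCL2L11, BBC3, PMAIP1, BID and BIK) and 2 effectors (BAX and BAK1). On the array 30 probe sets were assigned to 9 of the 10 genes alone, out of 54675 probe sets and 19775 genes with a probe set of their own. BBC3 had 1 probe set, which it shares with other genes. Monolayer cells grew on treated plates in DMEM/F-12 that contained 10% fetal bovine serum. Spheroids formed from such cells on low adhesion plates in stem cell media (DMEM/F-12 with B27, EGF and FGF) and were taken on day 5. Medium, attachment and growth form therefore differed together and cannot be told apart. One HT-29 line gave both cultures, each RNA was read on 1 array, and the difference between them has no replicate check and no test.

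In the mitochondrial pathway of apoptosis the effectors BAX and BAK assemble pores in the outer membrane, through which cytochrome c leaves and caspases are activated. Survival proteins such as BCL-2, BCL-XL (the main product of BCL2L1) and MCL-1 bind the effectors and their activators and hold them in check. BH3-only proteins carry the short helix that fills the groove of the survival proteins, and some of them also activate BAX and BAK directly. Epithelial cells that lose their attachment to matrix can enter a form of this death known as anoikis, in which BH3-only proteins take part. Arrays measure transcript levels, and the family is also governed by protein turnover, cleavage and phosphorylation, which these data do not measure.

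Values are MAS5 signals, intensities on a linear scale, and both arrays had a trimmed mean of 500.1. Signals under 62.7, the median of all signals, were taken as too low to read and set to that floor, so that a value read on a single array gives a bound, and where neither array exceeds the floor no fold is given. Each gene is represented by the probe set whose mean log2 signal was highest. Differences are log2 of spheroid over monolayer signal, negative where spheroids were lower. Of the 13183 genes that could be read (signal above the floor on at least 1 array) 5.61% were at least 2-fold different, and 45.1% of those were higher in spheroids. That split was 34.2% after median scaling, 57.5% with the floor at the 75th percentile and 77.6% after scaling to the hybridisation spike-ins. The median over all genes was -0.05 and the SD of their differences 0.51. Probe sets of 1 gene scattered around the mean of their gene with a pooled SD of 0.41, over 5506 genes. This is the only spread these arrays give, and it holds no variation between replicate cultures or arrays. Of 10 colon epithelial markers 6 were above the floor on both arrays, among them EPCAM and CDH1, while CDX1 and LGALS4 were under it on both and CDX2 and VIL1 on 1. Of markers of other cell types 1 of 6 could be read for leukocytes (CD3D), 2 of 6 for fibroblasts (COL1A1 and COL1A2) and 1 of 4 for endothelium (PECAM1), with COL1A1 at 1370 in monolayer and 1972 in spheroids and the others no higher than 123.7, while PTPRC, DCN, VWF and KDR were under the floor on both arrays. The part of other cells in the results was not tested.

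None of the 9 members that could be read was 2-fold different by the probe set that stands for it, against 5.61% of all genes. BCL2L1 and BAX were lower in spheroids, BCL2 and PMAIP1 higher, and MCL1, BCL2L11 and BIK nearly equal. In bulk RNA such as this, fewer cells that express a gene and less of its RNA per cell cannot be told apart. Of the 23 member probe sets that could be read 15 were higher in spheroids and 8 lower, while 49.2% of all such probe sets of 1 gene were above 0. MCL1 held 4 of the higher and 1 of the lower, and BCL2L11 4 and 2. Probe sets of the same gene are not replicates, so that these counts lean on the genes with many probe sets. At the 2-fold threshold 0 of the 23 were higher and 1, of BCL2L1, was lower, where among all such probe sets of 1 gene 3.66% were higher and 3.14% lower, 6.8% together. The other 7 of the 30 were under the floor on both arrays.

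**Figure D1:**
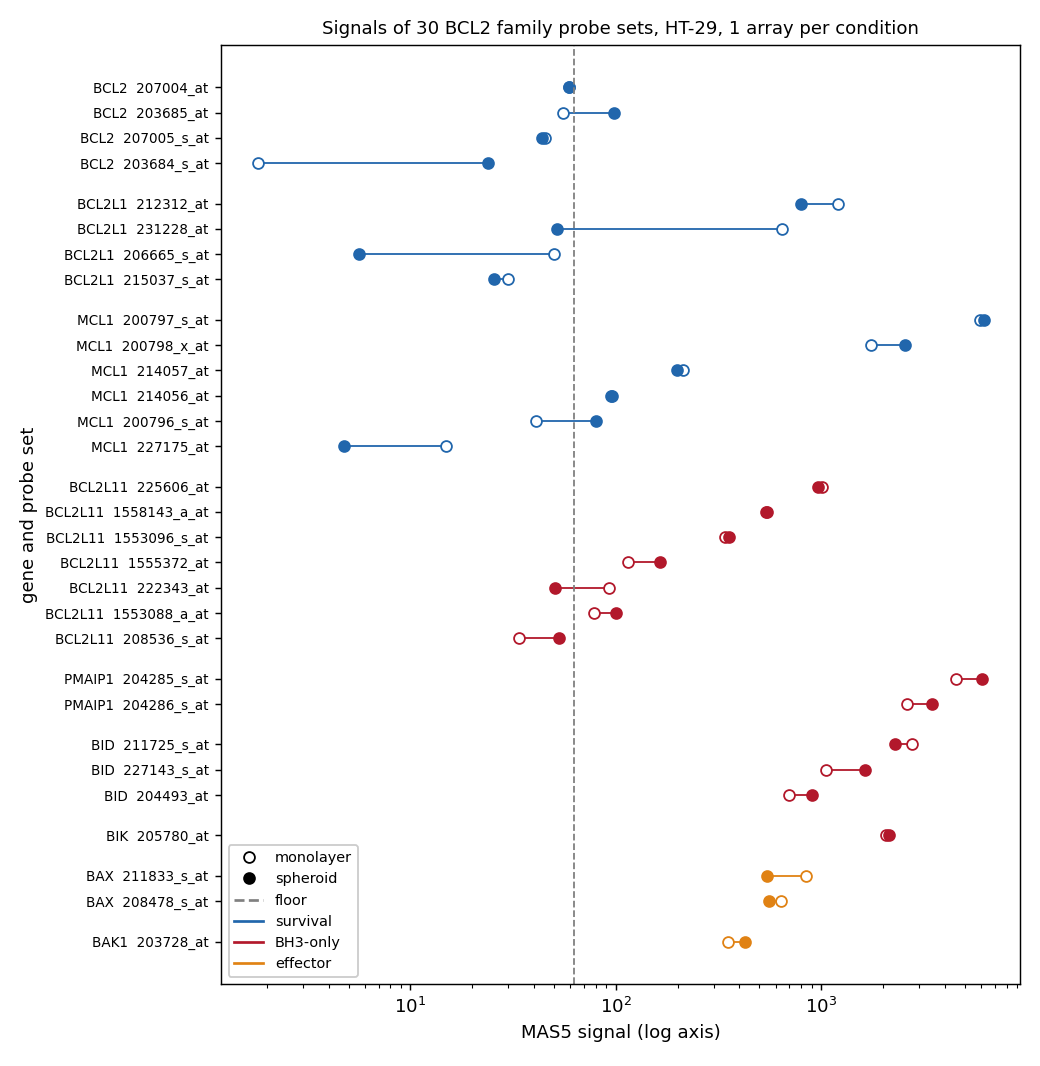
MAS5 signal (log axis) of the 30 probe sets assigned to 1 BCL2 family member alone, open circles for the monolayer array and filled circles for the spheroid array, with 1 array per condition and colours for the roles. Most pairs lie close together, and probe set 231228_at of BCL2L1 goes from 641.8 to 52.0, across the dashed floor of 62.7. Other wide pairs, such as 203684_s_at of BCL2 (1.80 and 23.8) and 206665_s_at of BCL2L1 (50.2 and 5.63), lie wholly under the floor.

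MCL1, which encodes a survival protein of short half-life, had nearly equal signals on both arrays. By the probe set 200797_s_at it was at 5915 in monolayer and 6218 in spheroids (log2 difference 0.07). Probe sets 214057_at and 214056_at gave -0.10 and 0.02, with signals from 211.4 to 197.6 and from 94.7 to 96.1. A larger value came from 200798_x_at, whose type of probe set can also bind other transcripts, at 1749 in monolayer and 2560 in spheroids (0.55). Probe set 200796_s_at was under the floor in monolayer and at 80.3 in spheroids, at least 0.36 higher, and the last, 227175_at, was under it on both arrays. The 4 MCL1 probe sets that passed the floor in both cultures thus lay between -0.10 and 0.55, and 38.3% of all genes were higher than the 0.07 of the one that stands for the gene.

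BCL2, the founding member, whose protein sits on mitochondria and endoplasmic reticulum, was near the limit of detection. Probe set 203685_at read 55.2 in monolayer, under the floor, and 98.5 in spheroids, so that the gene was at least 1.57-fold higher there (log2 difference of at least 0.65). The spheroid signal is also above 89.2, under which 95% of the signals of 135 olfactory receptor probe sets lay, which serve as genes expected to be silent, and against that higher floor the bound falls to 0.14. The 3 other probe sets of BCL2 were under the floor on both arrays. BCL2 was therefore read by 1 of 4 probe sets and on 1 array.

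BCL2L1, the gene of BCL-XL, was lower in spheroids by both of its probe sets that could be read, and these differed widely in size. By 212312_at, which stands for the gene, the signal was 1209 in monolayer and 800.3 in spheroids, 1.51-fold lower (log2 difference -0.60). With 88.7% of all genes higher than this, BCL2L1 lay in the lower part of the distribution but within the range of many genes. Probe set 231228_at read 641.8 in monolayer and 52.0, under the floor, in spheroids. That is at least 10.2-fold lower, with a log2 difference of -3.36 or beyond. The 2 other probe sets, 206665_s_at and 215037_s_at, were under the floor on both arrays, with signals of 50.2 and 5.63 and of 29.9 and 25.5.

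The value of 231228_at was the lowest of all 24786 probe sets of 1 gene that were read. It ranked at place 2 of 21748 with the olfactory receptor floor, where it was at least 7.19-fold lower, and at place 429 of 12949 with the floor at the 75th percentile, a signal of 386.0, against which the bound is 1.66-fold. With a pseudocount of 15.9 in place of the floor it was at place 2 of 41097. The rank without any floor, 610, is among signals too low to order. The pair of BCL2L1 probe sets lay at least 2.76 apart on the log2 scale, where the median distance between the extreme probe sets of a gene was 0.52, and 9 of 6467 genes with at least 2 probe sets that could be read, or 0.139%, spanned as much by values set to the floor in the same way. The median of both put BCL2L1 at -1.98, past 2-fold, a value that takes the bound as it stands at this floor, so that the size of its difference depends on which probe set is taken and its direction does not. In the RefSeq annotation (GRCh38.p14) the gene BCL2L1 is overlapped by BCL2L1-AS1 and by a further long non-coding RNA gene, LOC124904883. Where 231228_at lies on the BCL2L1 transcripts was not given in the sources used here, and whether it reads another isoform, another transcript or an array defect was not tested.

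**Figure D2:**
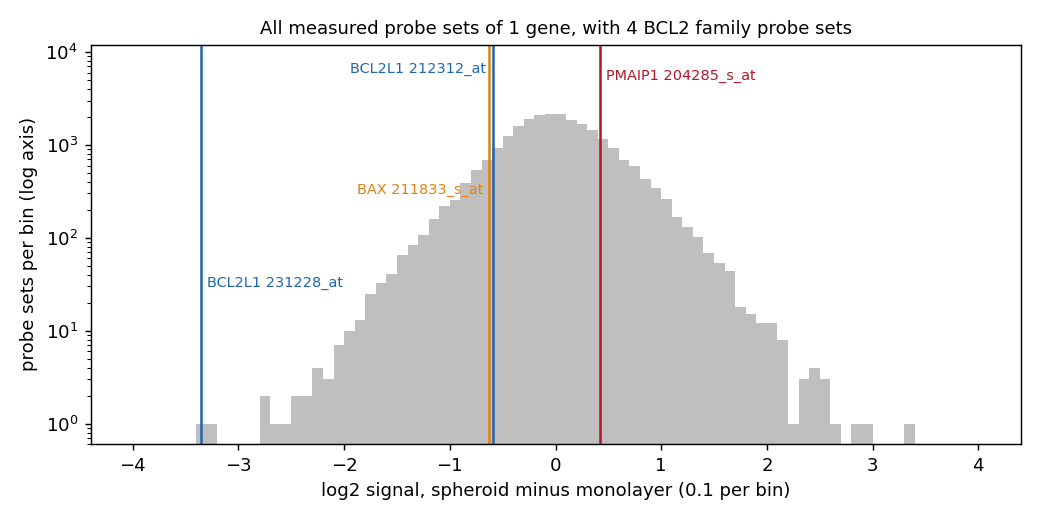
Number of probe sets (log axis, bins of 0.1) at each log2 difference (spheroid over monolayer, HT-29), over the 24786 probe sets of 1 gene that could be read, with lines at 4 BCL2 family probe sets. The line of BCL2L1 231228_at stands at the left end of the distribution, at -3.36, while those of BCL2L1 212312_at (-0.60), BAX (-0.63) and PMAIP1 (0.42) fall within its bulk.

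The BH3-only members were spread on both sides of 0, with log2 differences from -0.28 to 0.42 over the 4 genes that have probe sets of their own. PMAIP1, the gene of NOXA, which binds MCL-1 and promotes its turnover, was the highest of them. Its signals were 4511 in monolayer and 6041 in spheroids by 204285_s_at, 1.34-fold higher, and 2620 and 3468 by 204286_s_at. These 2 probe sets agreed within 0.02, at log2 differences of 0.42 and 0.40. Of all genes 15.4% were higher than this.

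BCL2L11, the gene of BIM, an activator of BAX and BAK known for its part in anoikis, was within 0.07 of 0 by the 3 of its probe sets with the strongest signals. Probe set 225606_at was at 1008 in monolayer and 966.3 in spheroids (-0.06), 1558143_a_at at 536.0 and 547.3 (0.03), and 1553096_s_at at 340.4 and 357.8 (0.07). The probe sets nearer the floor scattered. On one side 1555372_at went from 114.3 to 164.8 (0.53) and 1553088_a_at from 78.0 to 100.5 (0.36), and on the other 222343_at went from 92.4 to under the floor, a difference of -0.56 or beyond. The seventh, 208536_s_at, was under the floor on both arrays.

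BID, which is cut by caspase-8 and so links death receptors to mitochondria, had no single direction. Its probe set with the highest mean signal, 211725_s_at, was at 2765 in monolayer and 2277 in spheroids (-0.28). The other probe sets were higher in spheroids, 227143_s_at with 1060 and 1626 (0.62) and 204493_at with 695.2 and 903.9 (0.38). The sign of the BID difference thus turns with the probe set, and the median of the 3 was 0.38. BIK, whose protein acts at the endoplasmic reticulum, was read by 1 probe set, at 2059 in monolayer and 2128 in spheroids (0.05), and 40.6% of all genes were higher.

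BBC3, the gene of PUMA, has no probe set of its own. The platform annotation assigns 211692_s_at to 3 genes, BBC3 and the microRNA genes MIR3190 and MIR3191, so its signals of 105.8 in monolayer and 143.0 in spheroids (0.44) are those of a shared probe set and enter no count of members. The RefSeq table lists 3 mature microRNAs of these genes, all of which lie within the span of BBC3 on chromosome 19. They are shown because they are the reason for the shared name, with bases 2 to 8, the seed, in capitals and positions in GRCh38.p14. The first lies on the plus strand at chr19:47226988-47227010, the second on the minus strand at chr19:47226990-47227011 and the third on the minus strand at chr19:47226952-47226974.
hsa-miR-3190-3p: uGUGGAAGguagacggccagaga
hsa-miR-3191-5p: cUCUCUGGccgucuaccuucca
hsa-miR-3191-3p: uGGGGACGuagcuggccagacag
The first and second come from opposite strands of the same place, and 21 bases of miR-3190-3p are the reverse complement of miR-3191-5p. No 2 of the 3 seeds are the same. The platform annotation alone does not separate BBC3 from these genes for 211692_s_at. The authors labelled the RNA with a 3′ in vitro transcription kit, and which RNA this probe set read was not tested.

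The effectors went in different directions. BAX was lower in spheroids by both of its probe sets, with signals of 842.8 and 546.0 by 211833_s_at, 1.54-fold lower, and of 636.1 and 554.6 by 208478_s_at, 1.15-fold lower. Their log2 differences were -0.63 and -0.20. By the first of these 89.8% of all genes were higher than BAX. The distance between both probe sets was 0.43, where the median distance between the extreme probe sets of a gene was 0.52. BAK1, which can take the place of BAX in pore formation, was read by 1 probe set, at 350.4 in monolayer and 423.5 in spheroids, 1.21-fold higher (0.27), with 23.4% of all genes higher.

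Set against each other, the roles overlapped. The median log2 difference was 0.07 over the 3 survival members, where the value of BCL2 is a bound, and -0.01 over the 6 BH3-only and effector members that could be read. Both groups span 0, from -0.60 to 0.65 for survival members and from -0.63 to 0.42 for the others. The difference of the medians, survival minus the others, was 0.08 and has no error or test. It changed sign with the processing, to -0.25 with the floor at the 75th percentile, where BCL2 has no value, -0.09 with the median of probe sets and -0.26 with probe sets of the plain _at type, and was 0.39 with the probe set of largest difference, so that no direction between the roles can be given. The BH3-only members alone had a median of -0.01 and the effectors of -0.18. Counted by probe set, 5 of 8 were higher in spheroids among survival members, 9 of 12 among BH3-only members and 1 of 3 among effectors, while 49.2% of all probe sets of 1 gene that could be read were above 0. Probe sets of 1 gene read the same RNA and are not replicates. The largest differences downward were in a survival gene and an effector gene, BCL2L1 and BAX, and those upward in a survival gene and a BH3-only gene, BCL2, by a bound that rests on the floor, and PMAIP1. With the olfactory receptor floor BCL2, at 0.14, was under PMAIP1 and BAK1.

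**Figure D3:**
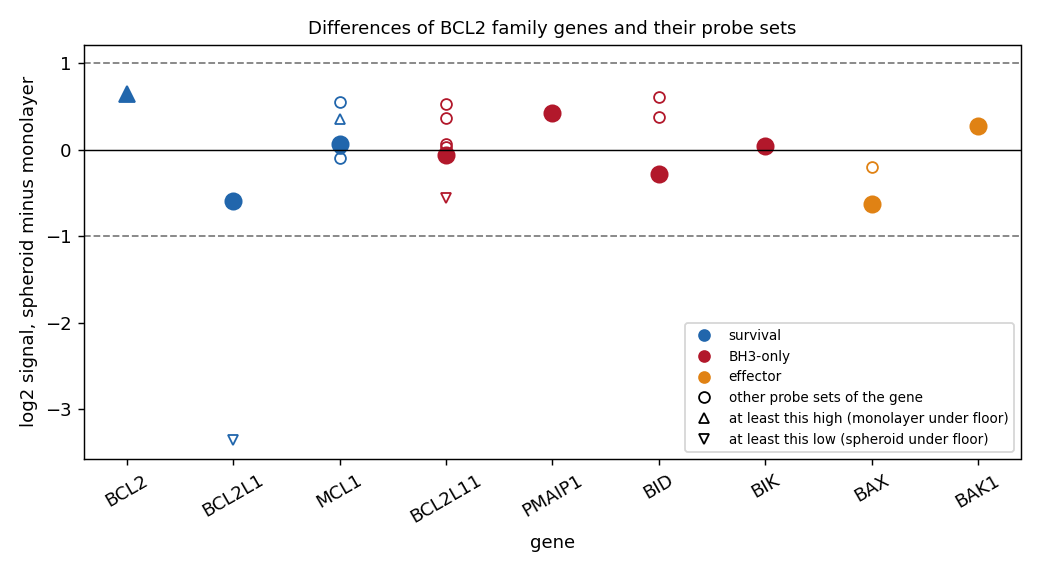
Log2 of spheroid over monolayer signal (y axis) for 9 BCL2 family genes in HT-29 cells, 1 array per condition. Filled symbols mark the probe set representing each gene, open symbols its other readable probe sets, triangles are bounds, and dashed lines mark 2-fold differences. The filled symbols lie between -0.63 and 0.65, and the open triangle of BCL2L1 lies beyond the lower dashed line.

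Directions were compared over 12 ways of processing the same signals, with each member set against the median of all genes under that setting, since scaling moves all genes alike (that median was -0.13 after median scaling and 0.18 after scaling to the spike-ins). BCL2L1 and BAX were under the median of all genes in 12 of 12 settings. PMAIP1, BAK1 and BIK were above it in 12 of 12, although BIK lay close to 0, and BCL2 in the 11 that gave it a value. MCL1 was above it in 11 of 12. BCL2L11 was above it in 2 and under it in 10, and BID above it in 3 and under it in 9, so that these genes have no settled direction. The settings are not independent of each other. Scalings by a constant largely cancel against the median of all genes. The probe set choices cannot move BIK and BAK1, which have 1 probe set each, or BCL2, of which 1 probe set could be read. BCL2 passed the floor in spheroids alone, so that with a floor its difference could only be upward. The same holds downward for 231228_at of BCL2L1, which enters with the median of probe sets and the probe set of largest difference. The counts therefore say how a value depends on the processing and not how certain it is.

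**Figure D4:**
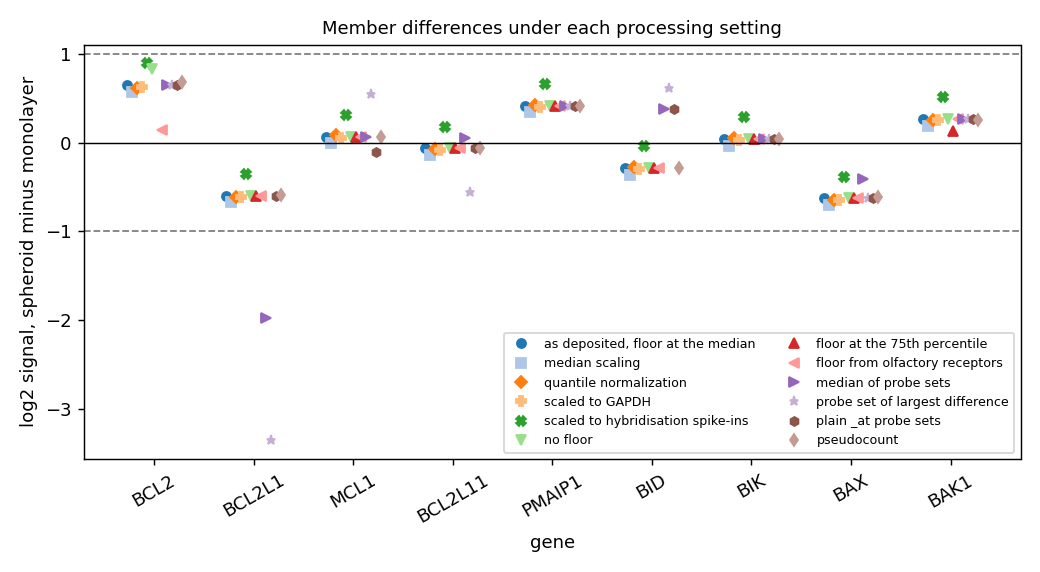
Log2 of spheroid over monolayer signal (y axis) for 9 BCL2 family genes in HT-29 cells under 12 processing settings, each with its own symbol, where dashed lines mark 2-fold differences. BCL2L1 and BAX stay under 0 and PMAIP1 and BAK1 above 0, BID has symbols on both sides, and BCL2L1 passes 2-fold under the settings that use its second probe set, at -1.98 and -3.36 with its signal in spheroids set to the floor.

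Genes that act with the family were taken from 7 lists. Of their 89 distinct genes that could be read 4 passed the 2-fold threshold upward in spheroids and 1 downward, against 2.53% and 3.08% of all genes, and their median log2 difference was 0.02. In the list of other family members and some of their partners 12 of 17 genes could be read. None was 2-fold different, and the median was 0.14. BNIP2, a partner of BCL-2, was highest, at 1381 in monolayer and 2558 in spheroids (0.89), and its second probe set gave 0.53. BCL2L2, the gene of the survival protein BCL-W, was at 882.8 and 1268 (0.52). On the lower side stood HRK, a BH3-only gene with signals near the floor of 126.6 and 85.6 (-0.56), and BCL2L13, at 1186 and 831.1 (-0.51), with 3 of its 4 probe sets lower. BCL2A1, BCL2L10, BCL2L14, BCL2L15 and the BH3-only gene BMF were under the floor on both arrays.

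Downstream of the pores the median was -0.09 over 17 genes of the apoptosome, caspases and their inhibitors. Of these 0 were past 2-fold upward and 1 downward, against 2.53% and 3.08% of all genes. That gene was CASP10, an initiator caspase, at 163.5 in monolayer and 78.3 in spheroids (-1.06), and its second probe set was at 0.65. CASP6, an executioner caspase, was at 0.45, BIRC2, the ubiquitin ligase cIAP1, at 0.35 and APAF1, the scaffold of the apoptosome, at 0.32. The second probe sets of CASP6 and APAF1 gave 0.66 and 0.93. Among 9 genes of death receptor signalling, with a median of 0.13, FAS had 4 of 4 probe sets higher, with signals of 384.2 and 537.1 by the one that stands for it (0.48). Its adaptor FADD was lower, at 1599 in monolayer and 896.4 in spheroids (-0.84), and the receptor TNFRSF1A was at -0.38. TRADD was at 0.68 by one probe set and -0.32 by the other.

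On the outer membrane the channels and import receptors that the family works beside had a median of -0.18 over 9 genes, with none past 2-fold. HK2, the hexokinase that binds the channel VDAC, stood above the rest, at 5158 in monolayer and 9509 in spheroids (0.88), but 1 of its 3 probe sets was lower (-0.18) and their median was 0.38. MTCH2, a receptor for cleaved BID, was at -0.39 by one probe set and 0.06 by the other, the import receptor TOMM22 at -0.28, with 1 of 3 probe sets higher, and VDAC2, which holds BAK, at -0.23. Factors that turn over or assist MCL-1 and other members had a median of -0.13 over 9 genes. MUL1, a mitochondrial ubiquitin ligase, was at 319.1 and 191.8 (-0.73), the co-chaperone BAG3 at -0.47, BAG1 at 0.38 and BTRC at 0.25, with 3 of the 4 BTRC probe sets lower.

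Transcription factors known to act on BH3-only genes were listed together with TRIB3, which is not a transcription factor. Of the 16 genes of this list that could be read 3 were past 2-fold upward, against 2.53% of all genes, and the median was 0.22. The lists were chosen with earlier results of these data known, so that this count only describes the list. DDIT3, the gene of CHOP, which raises BIM and represses BCL2 in endoplasmic reticulum stress, was at 603.7 in monolayer and 2769 in spheroids (2.20). ATF3 and JUN were at 1.30 and 1.21, with all 4 probe sets of JUN past 2-fold, while the second probe set of ATF3 gave 0.35 and the median of both 0.83, under the threshold. MYC was at -0.66. Of 19 genes of the DNA damage and stress response outside the family 1 was past 2-fold upward and 0 downward, and the median was 0.21. It was GDF15, a stress cytokine that other factors also induce, with signals of 3873 and 11136 (1.52), and 0.65 by its second probe set. SESN2, MDM2 and XPC were at 0.79, 0.77 and -0.78, and of 7 probe sets of MDM2 that could be read 2 were lower. The second probe set of SESN2 gave 0.24.

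**Figure D5:**
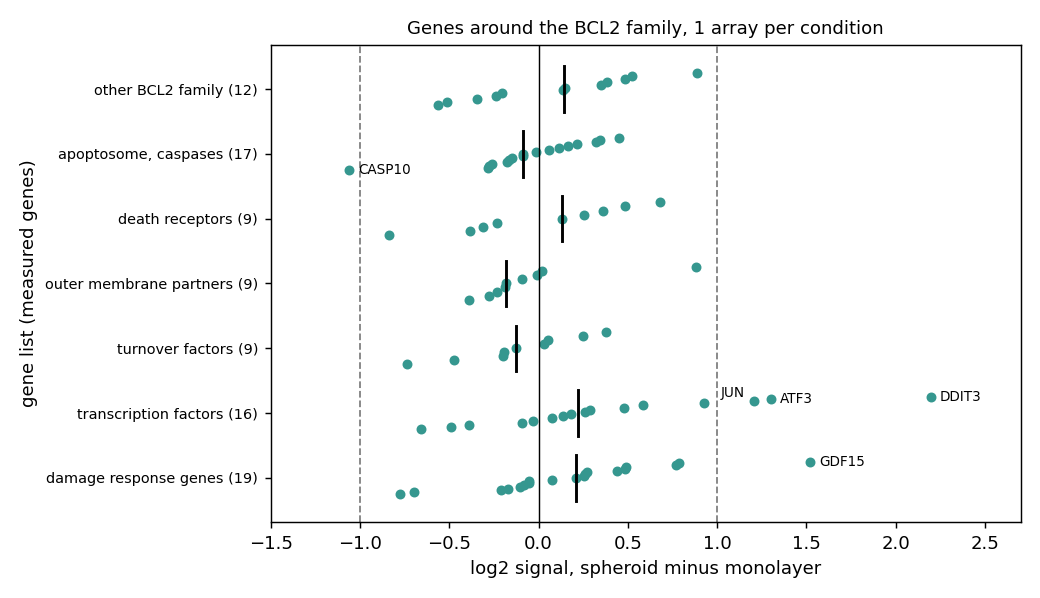
Log2 of spheroid over monolayer signal (x axis) in HT-29 cells for genes of 7 lists around the BCL2 family (dots), with the number of genes read in parentheses, the list median as a black bar and dashed lines at 2-fold. DDIT3, ATF3, JUN and GDF15 lie beyond the right dashed line and CASP10 beyond the left one.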

How the data were processed

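RNA from HT-29 cells, 1 monolayer and 1 spheroid culture, was analysed. The authors used Human Genome U133 Plus 2.0 arrays and the MAS5 method of Affymetrix Expression Console. The deposited values are intensities on a linear scale and come without detection calls. Duplicates are described in the methods, but a single array stands for each condition in the values used here, so that precision is limited by the number of arrays.

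Log2 ratios were computed from these values (Python 3.11.15, numpy 2.4.6, pandas 2.3.3, matplotlib 3.10.9). The floor was the 50th percentile of all signals and the threshold 2-fold, as in the methods. By the platform annotation 41097 probe sets have 1 gene and 1801 several, of which none was used for a gene, and 11777 have no entry here. Gene numbers of 41043 were found in the RefSeq table (GRCh38.p14), which gave current symbols. All members were named, and in each list the genes past 2-fold and up to 4 with the largest differences above the floor on both arrays. Members and lists were chosen with earlier results of these data known. Genes under the floor were added to complete a list, and some list genes are not reported here. The computation was tested on simulated signals. Alternatives were 4 scalings, 3 floors, 3 choices of probe set, a pseudocount and a 3-fold threshold. Protein sequences were not used here.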

Additional observations from a re-analysis of the deposited data

How the results depend on the processing

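With 1 array per condition no setting gives an error or a test, and none separates culture from array. No paired analysis was possible because each group has 1 array. Values of members and medians that moved by more than the SD between probe sets of a gene, and counts that changed over 1.5-fold, are given here or with the results. The number of members at least 2-fold lower went from 0 to 1, BCL2L1, with the median of probe sets or the probe set of largest difference, and the latter put the survival median at 0.55. For list genes, 4 higher and 1 lower on the scale as reported, the counts were 9 and 0 scaled to the hybridisation spike-ins, 7 and 4 without a floor and 11 and 2 with the probe set of largest difference. With a 3-fold threshold they were 1 and 0. Lower list genes numbered 0 with the floor at the 75th percentile or from olfactory receptors and with the median of probe sets, and 3 with a pseudocount of 15.9. Over all genes, 334 higher and 406 lower became 738 and 213 (spike-ins), 2476 and 2502 (no floor), 100 and 74 (75th percentile floor), 791 and 716 (largest difference), 1319 and 1397 (pseudocount) and 52 and 60 (3-fold). The 18 spike-in probe sets were all lower in spheroids, by a mean log2 difference of -0.25. Of 399 values of members and named list genes under other settings 21 moved by more than the SD, among them ATF3, HK2, GDF15 and CASP10 (1.30, 0.88, 1.52 and -1.06), which were at 0.83, 0.38, 1.08 and -0.21 with the median of probe sets. BTRC was at 0.25 and then at -0.28. Of 98 member values under other settings 90 moved by less than that SD. Among values past 2-fold 0 changed sign, but no member was past 2-fold as reported, so that this says nothing about the members. Smaller differences did change sign. With the median of probe sets BID went from -0.28 to 0.38 and BCL2L11 from -0.06 to 0.05. With plain _at probe sets MCL1 went from 0.07 to -0.10.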
